A study of Mus musculus with 11 samples.

Results

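10 genes of heterotrimeric G protein subunits were followed across the arrays of a Tardbp knockdown experiment: the beta subunit genes Gnb1, Gnb2, Gnb3, Gnb4 and Gnb5, and the Gi/o/z class of alpha subunit genes Gnai1, Gnai2, Gnai3, Gnao1 and Gnaz. Members were taken as the genes with probe sets annotated to exactly 1 of these symbols. This gave 93 probe sets for 9 of the 10 genes, out of 179496 probe sets with 1 symbol and 15803 genes in all. No probe set carried Gnai1 as its only symbol in the annotation used here, so Gnai1 was not analysed here. Gnb3 was chosen by its large difference between shTardbp and control arrays, so that difference is given below as a description without a test. The other 8 measured members entered as relatives of Gnb3 in the same gene families.

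A heterotrimeric G protein carries a signal from a membrane receptor into the cell. The alpha subunit binds guanine nucleotide, and once a receptor has loaded it with GTP it parts from the paired beta and gamma subunits, and both parts then act on effectors. Alpha subunits of the Gi/o/z class inhibit adenylyl cyclases, while the beta-gamma dimer opens inward rectifier potassium channels and acts on phospholipase C beta and several adenylyl cyclases. In neurons these proteins mediate much of the inhibitory signalling of transmitter receptors. Gnb3 encodes a beta subunit best known from cone photoreceptors and ON bipolar cells of the retina.

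The cells were NSC34, a mouse hybrid line made from neuroblastoma and spinal cord cells and used as a motor neuron model. All groups were transfected with a pSUPERIOR hairpin vector by lipofectamine, and stable clones were taken under puromycin. Of the arrays, 4 held RNA of cells with a hairpin to Tardbp, which encodes TDP-43, and are called shTardbp 1 to 4. The controls were 4 arrays of cells with a GFP hairpin (shGFP 1, 2, 3 and 5) and 3 of cells with a Renilla hairpin (shLuciferase 1, 2 and 4). Whether the arrays within a group came from different clones or cultures is not stated, so a p-value here reflects spread among samples that may be technical replicates. A single Tardbp hairpin was used. Its target in Tardbp, shown because every shTardbp array rests on it, was given by the labels as follows.
hairpin target: tctaagcaaagccccagacgagcct

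RNA was measured on 11 whole-transcript arrays, as log2 expression values of probe sets with array medians from 6.82 to 6.92. Each gene value below averages that gene's probe sets on the log2 scale. Probe sets differ in how they bind, so levels are compared between arrays for 1 gene and not between genes. The exception is the 25th percentile of all probe set values on an array (4.46 to 4.57), used below to mark low genes. It was taken over single probe sets, while the first quartile of gene means was 4.38. Tardbp itself read 8.80 to 9.0 on the shTardbp arrays and 9.08 to 9.42 on the control arrays, a log2 difference of -0.40 (SE 0.0722, adjusted p = 0.000713, limma; -0.29 and adjusted p = 0.173 with the array code letter, described next, as a block). The array codes in the labels start with the letter P for the 4 shTardbp arrays and shLuciferase 4, and with C for the other controls. The meaning of the letters is not stated, and they nearly follow the groups, so values within the P arrays are given below where calls depend on them. Of the neuronal and motor neuron markers checked, 12 of 12 were measured, with the neuronal growth-associated gene Stmn2 at 11.85 to 12.18 on every array and the acetylcholine-synthesis gene Chat below the 25th percentile of every array.

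Gnb3 separated the 3 groups. Its gene value was 7.86, 8.08, 8.03 and 8.02 on shTardbp 1 to 4, which were the highest of all arrays. It was 6.90, 6.52, 6.58 and 6.49 on shGFP 1, 2, 3 and 5. It was 5.80, 6.03 and 6.03 on shLuciferase 1, 2 and 4, the lowest of all arrays. No value of a group reached into the range of another group. The shTardbp mean of 8.0 ± 0.0932 (SD, n = 4) lay 1.71 above the mean of both control means on the log2 scale, which is 3.27-fold. The difference was 1.38, or 2.60-fold, against shGFP, and 2.05, or 4.13-fold, against shLuciferase. These comparisons share the shTardbp arrays. Among all genes ordered by their rise this difference stood at place 10, just after Mupcdh (1.74) and Dmkn (1.73) and just before Kifc2 (1.71) and Pld4 (1.62). Within the arrays with code letter P, the only control, shLuciferase 4, read 6.03. With the code letter as a block the difference was 1.62.

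**Figure D1:**
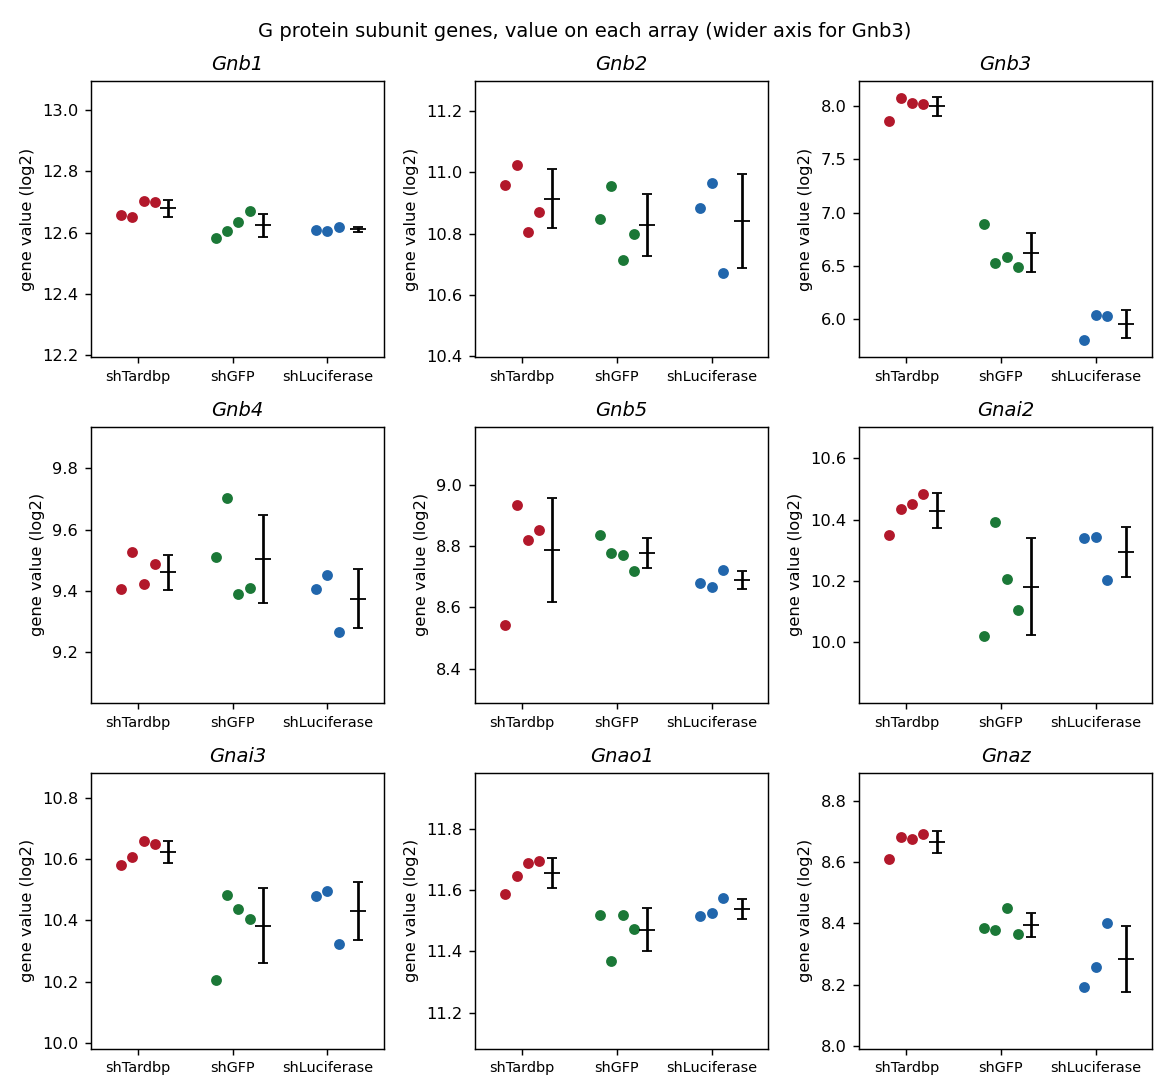
Each panel plots 1 gene's log2 value (mean of its probe sets, vertical axis) on every array of the 3 groups (horizontal axis), with points for arrays and a black mark for the group mean ± SD. Gnb3 fell into 3 separate levels, from 7.86 to 8.08, 6.49 to 6.90 and 5.80 to 6.03, while in the other genes the group means differed by at most 0.38.

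The 2 control groups also differed in Gnb3, a comparison that did not choose it. All 4 shGFP values lay above all 3 shLuciferase values, and the group means were 6.62 ± 0.186 (SD, n = 4) and 5.95 ± 0.135 (SD, n = 3). The log2 difference was 0.67 (SE 0.102, 95% interval 0.451 to 0.890), 1.59-fold, with an adjusted p of 0.000738 (limma, Benjamini-Hochberg over all genes). It was the only member called of 9 measured in this comparison, where 11.1% of all genes were called. Adjusted p-values for Gnb3 ran from 8.23e-05 to 0.0608 over the alternatives. The call was lost only where the median of the probe sets replaced their mean (log2 difference 0.48, adjusted p = 0.0608).

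The probe sets of Gnb3 moved unequally. All 10 had a higher mean on shTardbp arrays, and in 8 of the 10 all 4 shTardbp values lay above all 7 control values. Gnb3 was chosen on this difference, so both counts are a description, and the shares over all probe sets were not counted. The differences ran from 0.0339 to 2.98 on the log2 scale. Probe set 4781639, at the upper end, read 8.62, 8.65, 8.57 and 8.49 on shTardbp 1 to 4, 6.88, 6.42, 6.27 and 6.17 on the shGFP arrays and 4.77, 5.00 and 4.52 on the shLuciferase arrays. All 3 groups were apart in it. Probe set 5116539, at the lower end, read 6.08 to 6.56 on shTardbp arrays and 5.25 to 6.92 on control arrays. Here the groups overlapped throughout. Probe set 4332712 (0.83) was the other with overlap, since shTardbp 3 read 4.16 and shGFP 5 read 4.18, and it was the only one too low on the arrays to enter the test of probe set usage.

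Probe set usage is a probe set's log2 value minus the mean of its gene's other probe sets, and it asks whether parts of a gene move apart. Of all the members' probe sets the 3 with the largest usage differences between shTardbp and controls were in Gnb3: 5116539 at -2.00, 4781639 at 1.32 and 5456531 at 0.64. Since Gnb3 was chosen on this contrast, these are given without a test. Between the 2 control groups the usage of 4781639 also differed, by 1.05 (SE 0.150, adjusted p = 0.0300, limma), higher in shGFP. It was the only call among the members' 91 probe sets in that comparison, in which 0.126% of all probe sets tested were called. The call did not survive when most single arrays were left out (0 to 1 calls) or with the code letter as a block (0 calls). Without probe set 5116539 the gene difference of Gnb3 against both controls was 1.90, or 3.73-fold, and without 4781639 it was 1.57. Both alternatives were chosen after the data were seen. Positions of the probe sets in the transcript were not used here.

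**Figure D2:**
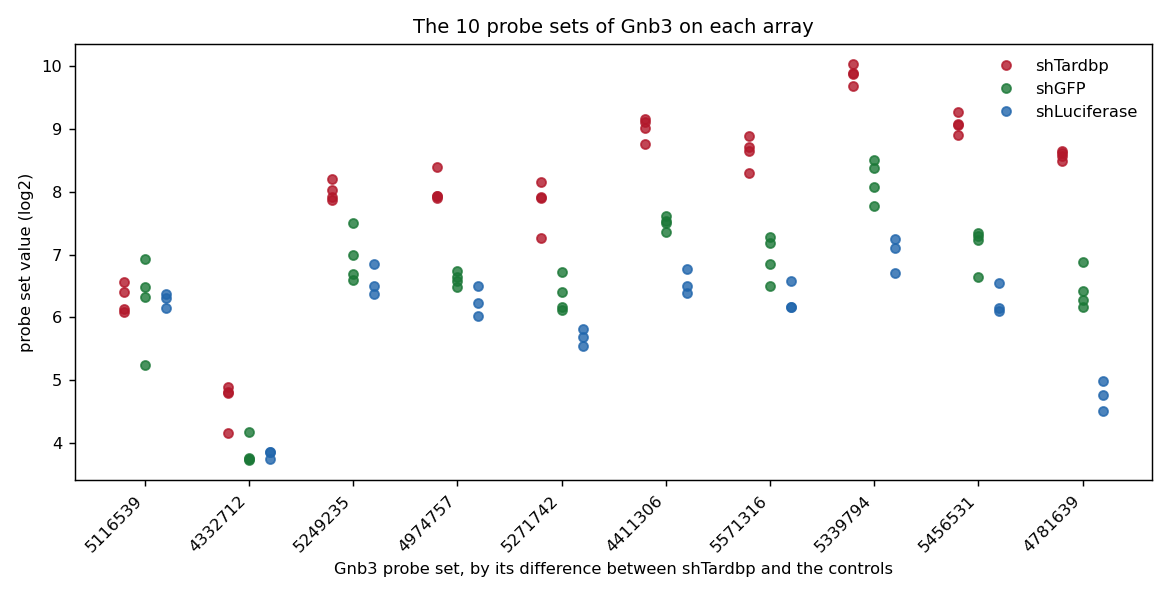
The log2 value of each of the 10 Gnb3 probe sets (horizontal axis, by its difference between shTardbp and controls) on every array, coloured by group. Probe set 5116539 overlapped in all groups, while 4781639 read 8.49 to 8.65 on shTardbp arrays, 6.17 to 6.88 on shGFP arrays and 4.52 to 5.00 on shLuciferase arrays.

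None of the other 4 beta subunit genes passed the limma test against both controls. Gnb1, the widely expressed beta subunit that is also the rod photoreceptor form, read 12.65 to 12.70 on shTardbp arrays and 12.58 to 12.67 on controls, so the groups overlapped. Its log2 difference was 0.06 (95% interval -0.0435 to 0.167, adjusted p = 0.423). Gnb2, another widely expressed form, read 10.80 to 11.02 against 10.67 to 10.97, a difference of 0.08 (-0.0768 to 0.236, adjusted p = 0.504). Gnb4 read 9.40 to 9.53 against 9.27 to 9.70, a difference of 0.02 (-0.128 to 0.171, adjusted p = 0.885). The upper ends of these intervals all lie below 0.24.

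Gnb5 is the divergent beta subunit, which pairs with the R7 group of RGS proteins in place of a gamma subunit. It read 8.54, 8.93, 8.82 and 8.85 on shTardbp 1 to 4, 8.72 to 8.84 on shGFP and 8.67 to 8.72 on shLuciferase arrays. The array shTardbp 1 was the lowest of all 11 and shTardbp 2 the highest, so the knockdown group spanned every control. The log2 difference was 0.05 (95% interval -0.0977 to 0.206) with an adjusted p of 0.669.

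Of the 4 measured alpha subunit genes of the Gi/o/z class, 3 rose by small amounts and Gnai2 did not pass against both controls. Gnaz encodes a Gi-class alpha subunit with slow GTP hydrolysis, found mainly in neurons and platelets. It read 8.61, 8.68, 8.67 and 8.69 on shTardbp 1 to 4, 8.39, 8.38, 8.45 and 8.37 on shGFP 1, 2, 3 and 5, and 8.19, 8.26 and 8.40 on shLuciferase 1, 2 and 4. All knockdown values lay above all control values. Gnaz rose by 0.32 on the log2 scale (SE 0.0557, 95% interval 0.205 to 0.445), 1.25-fold, with an adjusted p of 0.000486. The difference was 0.27 against shGFP (adjusted p = 0.00489) and 0.38 against shLuciferase (adjusted p = 0.000829). With the code letter as a block it was 0.18 and no longer called (adjusted p = 0.217, range over all alternatives 4.89e-05 to 0.217). Against shGFP alone the call was also lost with the median of the probe sets (0.19, adjusted p = 0.240).

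Gnai3, a widely expressed inhibitory alpha subunit, read 10.58, 10.61, 10.66 and 10.65 on shTardbp 1 to 4. It read 10.20, 10.48, 10.44 and 10.41 on shGFP arrays and 10.48, 10.49 and 10.32 on shLuciferase arrays, all below the knockdown values. It rose by 0.22 (SE 0.0645), 1.16-fold, with an adjusted p of 0.0196. The difference was 0.24 against shGFP (adjusted p = 0.0224) and 0.19 against shLuciferase, where it was not called (adjusted p = 0.0931). The call against both controls was lost without shTardbp 3 (adjusted p = 0.0622), without shTardbp 4 (0.0534) and with the code letter as a block (0.35, adjusted p = 0.0549), within a range of 0.00735 to 0.0622. The call against shGFP was lost without shGFP 1 (adjusted p = 0.0615), without shTardbp 3 (0.0622) and without shTardbp 4 (0.0536). It was also lost with the code letter as a block (0.40, adjusted p = 0.0718).

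Gnao1 encodes Go alpha, the most abundant alpha subunit of brain. It read 11.59, 11.65, 11.69 and 11.70 on shTardbp 1 to 4, 11.37 to 11.52 on shGFP arrays and 11.52 to 11.57 on shLuciferase arrays. The lowest knockdown array, shTardbp 1, stood just above the highest control, shLuciferase 4. The difference of 0.15 (SE 0.0538), 1.11-fold, passed the threshold narrowly with an adjusted p of 0.0493. By limma it was 0.18 against shGFP (adjusted p = 0.0357), a call lost in 9 of 19 alternatives. Against shLuciferase it was 0.12 and not called (adjusted p = 0.243). The call against both controls was lost in 11 of 19 alternatives, with adjusted p-values from 0.0119 to 0.523. Among these were the alternatives without any 1 of shTardbp 2 (0.0906), shTardbp 3 (0.139), shTardbp 4 (0.129), shGFP 2 (0.0816), shGFP 3 (0.0592), shGFP 5 (0.0744), shLuciferase 1 (0.0962) or shLuciferase 2 (0.0880).

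Gnai2, another widely expressed inhibitory form, read 10.35, 10.44, 10.45 and 10.48 on shTardbp 1 to 4. The shGFP arrays spread from 10.02 to 10.39 and the shLuciferase arrays from 10.20 to 10.34, so shGFP 2 reached into the knockdown range. The log2 difference from both controls was 0.19 (SE 0.0712) and not called (adjusted p = 0.0577). It was called in 7 of 19 alternatives, for example without shGFP 2 (0.23, adjusted p = 0.0134). Against shGFP alone Gnai2 rose by 0.25 (adjusted p = 0.0325), a call lost without any 1 of shGFP 1 (0.0949), shGFP 3 (0.0584), shGFP 5 (0.0902), shTardbp 2 (0.0639), shTardbp 3 (0.0765) or shTardbp 4 (0.0814). Gnai2 also lost this call with the median of the probe sets (0.30, adjusted p = 0.0855) and with the code letter as a block (0.39, adjusted p = 0.131). Against shLuciferase alone its difference was 0.13 (adjusted p = 0.319).

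In all, 3 of the 8 members tested rose against both controls by limma's adjusted p, and 5 did not pass. In the same comparison 30.5% of all genes were called in either direction and 13.5% were called higher, so a called member was not rare by the standard of these arrays. The same 3, all alpha subunit genes, had every shTardbp value above every control value, as did 8.45% of all genes. The members' median difference was 0.11, beside 0.01 for all genes. Against shGFP alone 4 of 8 rose (27.9% of all genes called), and against shLuciferase alone 1 of 8 rose, Gnaz (26.1% of all genes called). All of these comparisons share the shTardbp arrays. With the code letter as a block 0 of the 8 were called against both controls by limma, and 3 had an unadjusted p under 0.05. That block leaves shLuciferase 4 as the control read under the same letter as the knockdown. On it Gnaz read 8.40, Gnai3 10.32 and Gnao1 11.57. That each lay below the lowest shTardbp array follows from the separation of these 3 genes given above and adds no evidence. The part of the code letter in these results was not tested further.

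**Figure D3:**
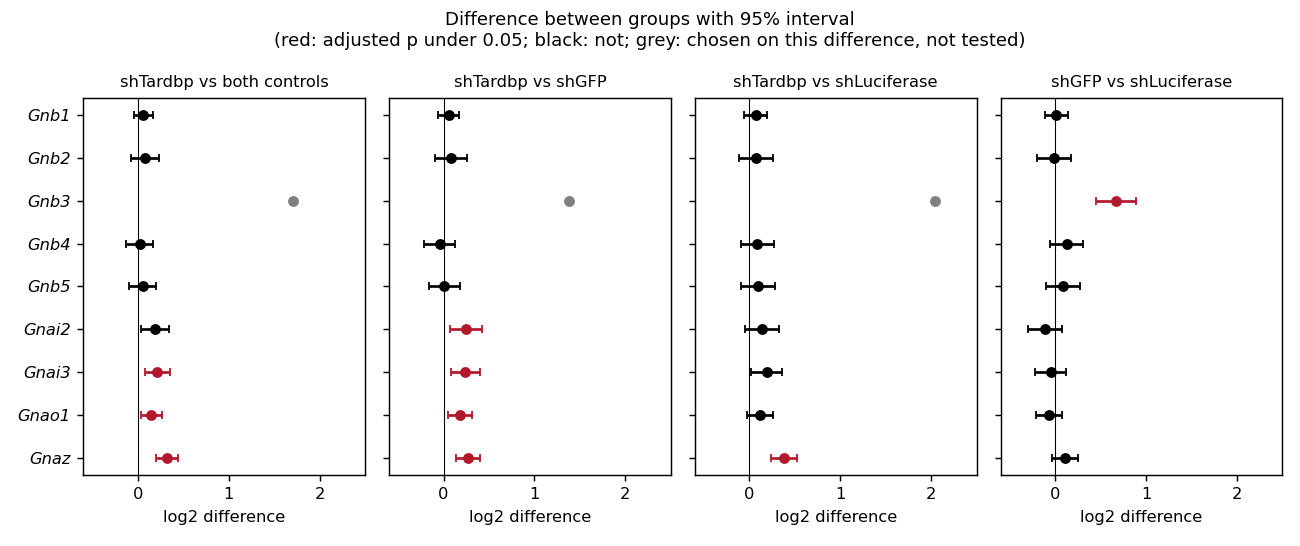
Points are log2 differences between groups from the limma model and bars their 95% intervals, for the 9 measured genes (vertical axis) in 4 comparisons (panels). Gnb3 stood at 1.71 against both controls, drawn in grey without a bar where it was not tested, while the alpha subunit genes lay between 0.15 and 0.32.

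In the other members, of 82 probe sets tested in 8 genes, 0 were called for usage between shTardbp and controls by limma, and 3 had an unadjusted p under 0.05. Of all probe sets tested 1.42% were called. Usage differences in these genes ran from -0.37 to 0.22, and the smallest adjusted p was 0.0926, for a probe set of Gnaz. Every probe set of Gnai2 (12 of 12), Gnai3 (10 of 10), Gnao1 (10 of 10) and Gnaz (7 of 7) had a higher mean on shTardbp arrays. For the beta subunit genes other than Gnb3 this held for 11 of 12 in Gnb1, 9 of 10 in Gnb2, 5 of 10 in Gnb4 and 9 of 12 in Gnb5. These probe sets are averaged in the gene values above, so the counts are a description and no separate evidence. The share of all probe sets with a higher mean on shTardbp arrays was not counted.

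RefSeq promoter windows (GRCm38.p6) were matched for 6 of the 10 members: Gnb1, Gnb2, Gnb5, Gnai1, Gnai3 and Gnao1. Among the genes described here, Gnai3 is the direct neighbour on chromosome 3 of Gnat2, the cone alpha subunit that works with Gnb3 in the retina. The 250 bases before their annotated starts are shown because both genes read higher on every shTardbp array than on every control array. Capitals mark the letters TAATCC or their reverse complement GGATTA, the core bound by the Crx and Otx proteins of photoreceptors. The window of Gnai3 is chr3:108146153-108146402 on the minus strand and that of Gnat2 is chr3:108092816-108093065 on the plus strand.
Gnai3: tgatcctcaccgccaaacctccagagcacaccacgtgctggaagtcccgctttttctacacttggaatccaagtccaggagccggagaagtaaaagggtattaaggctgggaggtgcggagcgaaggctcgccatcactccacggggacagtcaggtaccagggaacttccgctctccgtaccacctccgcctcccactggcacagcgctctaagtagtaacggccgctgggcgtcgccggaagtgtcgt
Gnat2: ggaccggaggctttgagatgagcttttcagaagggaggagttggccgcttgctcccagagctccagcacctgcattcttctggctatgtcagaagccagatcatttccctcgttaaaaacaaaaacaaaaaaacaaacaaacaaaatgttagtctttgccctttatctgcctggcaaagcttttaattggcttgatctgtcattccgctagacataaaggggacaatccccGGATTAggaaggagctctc
The core occurred 1 time in the Gnat2 window, 19 bases before the start and on the opposite strand, and not in the Gnai3 window. Of 32851 windows of the same length in the table, 6.25% held it on either strand. The GC box GGGCGG, which does not overlap the core, was in neither window on either strand and in 32.7% of all windows. A match of letters is a description and does not show binding. Around Gnai3, chosen for this look after the values were seen, 5 of 10 neighbours had probe sets. Of these 3 rose, Gnat2, Ampd2 (0.27) and Amigo1 (0.45), while Gpr61 (0.04) and Atxn7l2 (0.05) were not called. In that comparison 30.5% of all genes were called and 13.5% called higher. Between the control groups only Atxn7l2 of the 5 was called, lower in shGFP (-0.36, adjusted p = 0.00407, limma), beside 11.1% of all genes.

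The other alpha subunits were covered by a list of 11 genes, of which 10 had probe sets. Against both controls 2 rose, 1 fell and 7 did not pass, beside 30.5% of all genes called. Gnat2 read 6.57, 6.68, 6.87 and 7.14 on shTardbp 1 to 4, 5.88 to 6.08 on shGFP arrays and 5.64 to 6.03 on shLuciferase arrays. It rose by 0.90 (SE 0.104), 1.86-fold, with an adjusted p of 1.99e-05, and was called in each of the 18 alternatives that measured it. Gnaq, which activates phospholipase C beta, rose by 0.23 (adjusted p = 0.0134), a call lost when probe set medians were used (0.0825). Its close relative Gna11 fell by 0.31 (adjusted p = 0.00789), a call lost under the code letter block (adjusted p = 0.672) and when probe set medians were used (0.107). Gna12 was at -0.11 (adjusted p = 0.358). Against shGFP alone 2 of the list were called higher and 2 lower, beside 27.9% of all genes called. Against shLuciferase alone 1 was called higher, Gnat2, and 0 lower, beside 26.1% of all genes called. Gnaq and Gna11 were thus not called against shLuciferase.

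Of 12 gamma subunit genes, all measured, 3 rose, 2 fell and 7 did not pass, beside 30.5% of all genes called in either direction. Gngt2, the cone gamma subunit, read 4.29 to 4.47 on shTardbp arrays and 3.81 to 4.08 on controls, a rise of 0.40 (SE 0.0587, adjusted p = 0.000146). These values lie near or below the 25th percentile of the arrays, which was 4.46 to 4.57, and the call was lost with the median of the probe sets (adjusted p = 0.131) and with the code letter as a block (0.0534). Gng3 rose by 0.25 (adjusted p = 0.0278) at levels below that percentile, and its call was lost in 9 of 18 alternatives, namely with probe set medians (difference 0.09, adjusted p = 0.610), under the code letter block (difference 0.08, adjusted p = 0.735) and without shGFP 3 (0.0526), shGFP 5 (0.0505), shLuciferase 1 (0.0645), shLuciferase 2 (0.0578), shTardbp 2 (0.0572), shTardbp 3 (0.0986) or shTardbp 4 (0.0901). Gng8 fell by 0.56 (adjusted p = 0.00438), a call lost under the code letter block (0.139). It lay 0.99 below shLuciferase, while its difference from shGFP of -0.13 was not called (adjusted p = 0.613). Gng7 fell by 0.41 (adjusted p = 0.0167), a call lost without shTardbp 1 (adjusted p = 0.0588). The remaining call, Gng4 (0.25, adjusted p = 0.0465), was below shGFP (-0.32) and above shLuciferase (0.83). It was at -0.10 under the code letter block, was not called with probe set medians (0.294) or after centring on array medians (0.0682), and lost its call in 8 of 11 alternatives that left out 1 array, with adjusted p-values from 0.0541 (without shGFP 2) to 0.134 (without shTardbp 2). The 3 subunits of the cone G protein, Gnat2, Gnb3 and Gngt2, each read higher on all shTardbp arrays than on any control array, as did 8.45% of all genes. Gnb3 was itself chosen for this rise, and the 3 were set side by side after their values were seen.

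Markers of the retinal cells that use this G protein were checked in the same way. Of 15 photoreceptor and retinal bipolar markers, 14 had probe sets, 1 rose (Gnat2) and 13 did not pass, and 8 were below the 25th percentile on every array. The cone arrestin gene Arr3 read 3.97 to 4.07 on shTardbp arrays and 3.89 to 4.07 on controls. The rod subunit gene Gnat1 read 4.21 to 4.43 against 4.20 to 4.37. The mean level of the list was 4.51 to 4.66 on shTardbp arrays and 4.42 to 4.61 on controls. Cnga3, the cone channel subunit, was at 0.24 (adjusted p = 0.0591). It was also higher in shGFP than in shLuciferase by 1.11 (adjusted p = 1.86e-05), so its shTardbp mean lay below that of shGFP and above that of shLuciferase.

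Effectors showed more calls in the upward direction. Of 17 listed genes 15 were measured. Against both controls by limma 6 rose, 0 fell (0 lower at an unadjusted p under 0.05) and 9 did not pass, while 13.5% of all genes were called higher. Against shGFP alone 4 were called higher and 1 lower, beside 27.9% of all genes called. Against shLuciferase alone 7 were called higher and 0 lower, beside 26.1% of all genes called. In 6 of the 15 the levels were below the 25th percentile on every array. Adcy4, an adenylyl cyclase, read 7.39, 7.47, 7.17 and 7.25 on shTardbp 1 to 4, 5.97 to 6.10 on shGFP arrays and 6.48 to 6.67 on shLuciferase arrays. It rose by 1.02 (SE 0.0685), 2.02-fold, with an adjusted p of 1.77e-07. Its control groups differed in the direction opposite to that of Gnb3, by -0.52 for shGFP minus shLuciferase (adjusted p = 0.00100).

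Plcb3, a phospholipase C beta that both Gq and beta-gamma can activate, rose by 0.69 (SE 0.0775, adjusted p = 1.58e-05). Its values were 8.24 to 8.49 on shTardbp arrays and 7.40 to 7.93 on controls. Adcy6, a cyclase that Gi alpha subunits inhibit, rose by 0.39 (adjusted p = 0.000181), from 9.34 to 9.64 on controls to 9.87 to 9.98. Adcy4, Plcb3 and Adcy6 were called in every alternative run. Kcnj9, a subunit of the inward rectifier channels opened by beta-gamma, rose by 0.37 against both controls (adjusted p = 0.00117), but against shGFP it was at 0.10 (adjusted p = 0.426). That call was lost when probe set medians were used (0.123) and under the code letter block (0.0872). The other channel genes Kcnj3, Kcnj5 and Kcnj6 were at 0.03 each and not called. Adcy7 (0.28, adjusted p = 0.00212) and Adcy2 (0.23, adjusted p = 0.0222) made up the 6. Both of these calls were lost under the code letter block (0.252 and 0.447), and that of Adcy2 also when probe set medians were used (0.152) and without shTardbp 2 (0.0872). Adcy2, Adcy4 and Adcy7 encode the cyclase isoforms that beta-gamma can stimulate, a grouping made after the values were seen.

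Of 15 regulators and chaperones, all measured, 3 rose, 2 fell and 10 did not pass, a share near the 30.5% of all genes called. Rgs9 and Rgs7 encode R7 RGS proteins, which speed GTP hydrolysis by Gi/o alpha subunits and bind Gnb5. Rgs9 read 6.77 to 7.09 on shTardbp arrays, 6.43 to 6.67 on shGFP arrays and 6.01 to 6.20 on shLuciferase arrays. It rose by 0.61 (SE 0.0742, adjusted p = 2.91e-05) and, like Gnb3, was higher in shGFP than in shLuciferase (0.49, adjusted p = 0.00294). Rgs7 rose by 0.67 (SE 0.128, adjusted p = 0.00112), a call lost with the code letter as a block (0.13, adjusted p = 0.666). The other R7 genes, Rgs6 (0.09, adjusted p = 0.463) and Rgs11 (-0.01, adjusted p = 0.962), were not called, nor was Gnb5. Gpsm2 (-0.44, adjusted p = 0.00182) and Gpsm1 (-0.28, adjusted p = 0.00408), which hold free Gi alpha subunits in the GDP form, both fell, and both calls were lost under the code letter block (0.331 and 0.702), that of Gpsm1 also when probe set medians were used (0.0783). The other rise was that of the phosducin-like gene Pdcl, which assists assembly of beta-gamma (0.35, adjusted p = 0.00667).

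**Figure D4:**
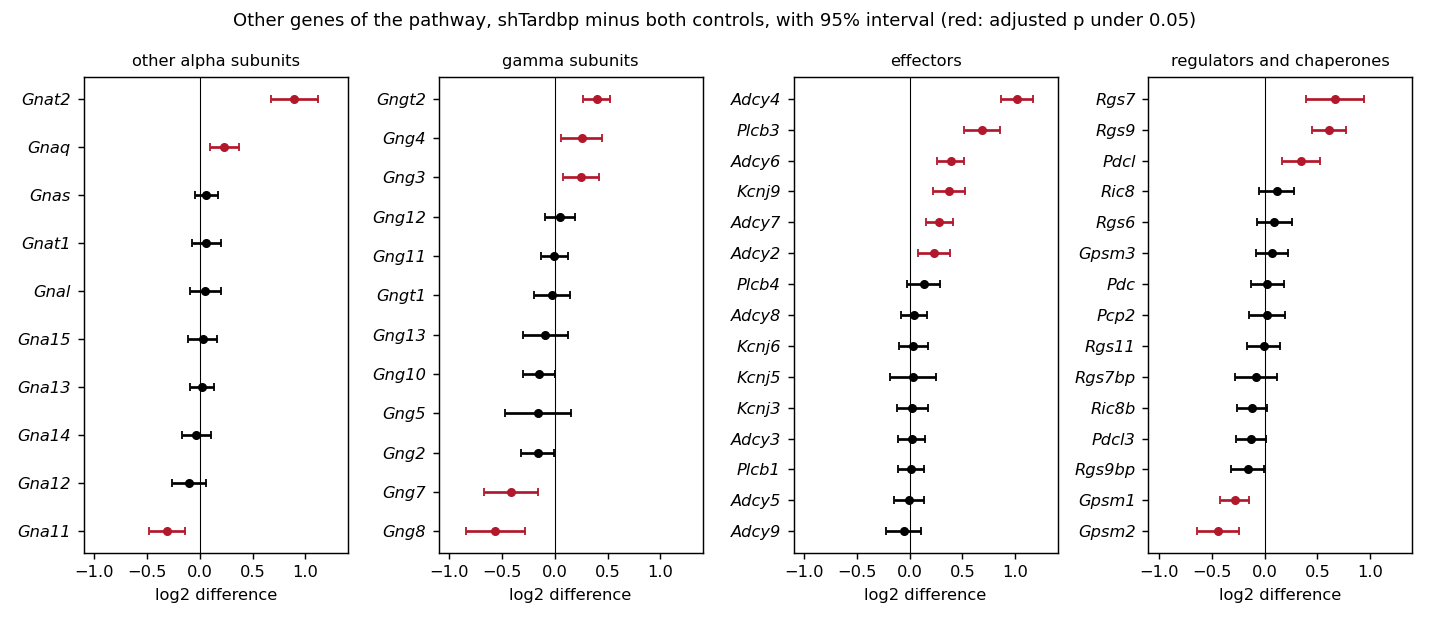
Points are log2 differences of shTardbp minus both controls from the limma model and bars their 95% intervals, for genes of 4 lists (panels), in red where the adjusted p was under 0.05. Gnat2 at 0.90 and Adcy4 at 1.02 led their lists, while Gna11, Gng7, Gng8, Gpsm1 and Gpsm2 fell.

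The median differences of these lists were 0.04 for the other alpha subunits, -0.06 for the gamma subunits, 0.04 for effectors and 0.02 for regulators and chaperones, beside 0.01 for all genes. Markers of other cell types were counted in the same way, beside the 30.5% of all genes called. Of 5 fibroblast markers 2 fell, Dcn (-1.61) and Pdgfra (-0.92), and the list's mean level was 5.11 to 5.22 on shTardbp arrays and 5.63 to 5.80 on controls. Of 3 microglia and blood markers 0 were called by limma (0 at an unadjusted p under 0.05; adjusted p from 0.730 to 0.954). Of 3 glia markers measured 1 rose (Mbp, 0.24, a call lost when probe set medians were used, adjusted p = 0.296, under the code letter block, 0.256, and without shTardbp 3, 0.0569), and of 4 endothelium and muscle markers 1 rose (Pecam1, 0.41). Of 12 neuronal and motor neuron markers 2 rose, the synaptic vesicle gene Syp (0.69) and the vesicular acetylcholine transporter gene Slc18a3 (0.63, a call lost under the code letter block, adjusted p = 0.0571). Against shGFP alone 4 of these 12 were called higher and 2 lower, beside 27.9% of all genes called. Against shLuciferase alone 3 were called higher and 0 lower, beside 26.1%. Between the control groups 2 were called higher in shGFP and 4 lower, beside 11.1% of all genes called. The part of these shifts in the values above was not tested. All samples were NSC34 cells, so these markers describe expression in that line. In bulk RNA, fewer cells expressing a marker and less of its RNA per cell cannot be told apart.

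Around Gnb3 on chromosome 6, the RefSeq gene order gave 10 neighbours, 5 on each side, of which 8 had probe sets. Of these 4 rose, 1 fell and 3 were not called, beside 30.5% of all genes called and 13.5% called higher. Cdca3, a cell-cycle gene directly beside Gnb3, fell by 0.74 (adjusted p = 5.75e-06). Leprel2, named P3h3 in current annotation and directly on the other side, rose by 0.30 (adjusted p = 0.00363), and beyond it Gpr162 rose by 0.70 (adjusted p = 1.88e-05). Both Leprel2 (0.31, adjusted p = 0.0292) and Gpr162 (0.39, adjusted p = 0.0201) were also higher in shGFP than in shLuciferase, as Gnb3 was. They were the only 2 of the 8 called in that comparison, where 11.1% of all genes were called. The uncalled neighbours went both ways there, from Tpi1 at 0.40 to Spsb2 at -0.33. Farther out, Spsb2 rose by 0.75 and Lag3 by 0.39, both calls lost under the code letter block (0.0788 and 0.0742) and that of Lag3 also when probe set medians were used (0.10, adjusted p = 0.634), while Tpi1 (0.02), Usp5 (0.11) and Cd4 (0.05) were not called. Usp5 was called under that block (0.56, adjusted p = 0.00718).

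The genes whose profile over the 11 arrays was most like that of Gnb3 were Dyrk4, Cd74, Pi16, Sulf2 and Pld4. Likeness was the root mean square difference between the 2 genes' log2 values after each gene's own mean was taken off, and it was 0.144 for Dyrk4, 0.228 for Cd74, 0.240 for Pi16, 0.249 for Sulf2 and 0.271 for Pld4. Dyrk4, a protein kinase gene, also lies on chromosome 6 but not among the 10 neighbours. It read 6.55 to 6.81 on shTardbp arrays, 5.45 to 5.51 on shGFP arrays and 4.67 to 4.78 on shLuciferase arrays, the same order of 3 separate levels as Gnb3. Cd74, which encodes the MHC class II invariant chain, read 9.08 to 9.41, 7.33 to 7.61 and 7.02 to 7.10 in the same groups. All 5 were picked for their likeness to Gnb3, so no test is given. The arrays are shared by all of them.

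**Figure D5:**
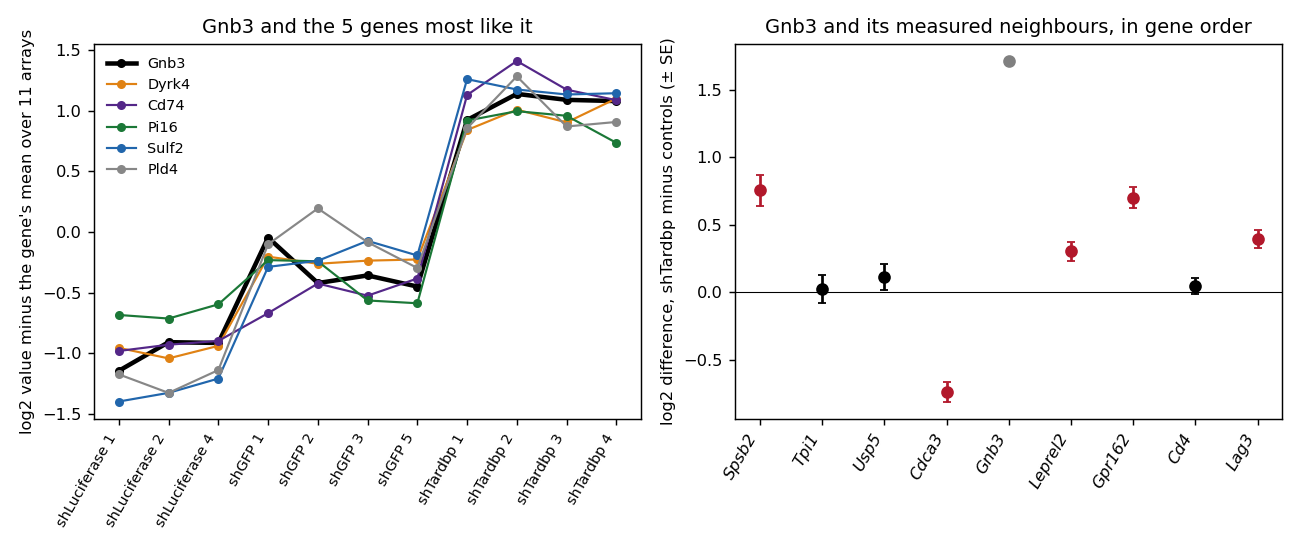
Left, the log2 value of Gnb3 and the 5 genes most like it on each array after each gene's own mean is taken off. Right, log2 differences of shTardbp minus both controls for Gnb3 (grey, 1.71, not tested, no bar) and its 8 measured neighbours (± SE) in gene order, red where the adjusted p was under 0.05; Cdca3 at -0.74 lay beside Gnb3.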

How the data were processed

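The authors deposited log2 expression values per probe set, and the submitters' processing notes name Partek and RMA, with no version. How background was set and which annotation build served are not given in the sources. Of 194293 probe sets, 179496 came with 1 gene symbol, 1328 with several and 13469 with none; all per-sample columns were used. Gene values were means of log2 probe sets. limma 3.58.1 (lmFit, eBayes; R 4.3.3) fitted 1 linear model of the 3 groups over 15803 genes, with Benjamini-Hochberg adjustment over all genes and a threshold of 0.05. Fold changes are 2 to the power of the log2 difference. Usage was fitted with limma on probe sets above the 25th percentile in genes with at least 3 of them. The number of arrays limits the precision.

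The members and lists were chosen with earlier results of these data known. Named were all members, up to 4 genes per list by smallest adjusted p, the 5 genes most like Gnb3, the 3 probe sets with the largest usage difference and 5 neighbours on each side of Gnb3. Stmn2, Chat, Arr3 and Gnat1 were named as examples of their marker lists. Other genes named are said to be chosen after their values were seen or complete a count. Scripts were tested on simulated data. The alternatives were the median of probe sets, a filter on low genes, repeated quantile normalization, centring, array weights, the array code letter as a block, a replicate block, limma-trend and leaving out each array.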

Additional observations from a re-analysis of the deposited data

Results flagged for a closer look

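In 3 of 96 groups of 4 arrays looked at, 1 array lay apart from the rest by more than 0.829 of the group's range, and chance gives about 1 in 20. In Gpsm1, whose product holds free Gi alpha subunits, shGFP 2 read 7.23 while the other 3 shGFP arrays read 7.06 to 7.07. In Gpr162, a neighbour of Gnb3, shGFP 2 read 6.04 while the others read 5.76 to 5.80. In Tpi1, another neighbour, measured by 1 probe set, shTardbp 2 read 12.54 while the others read 12.05 to 12.09. No group of 4 arrays had such an array in the 9 measured subunit genes. The shLuciferase group, with 3 arrays, was not part of this check.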

How the results depend on the processing

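Of the members against both controls 3 were called, 0 when the code letter was the block (3 at an unadjusted p under 0.05, as against shGFP), and 1 to 3 when single arrays were left out. Against shGFP 4 were called, 1 with the median of the probe sets, 0 with the letter block, and 1 to 4 with single arrays left out. Against shLuciferase 1 was called, 2 after a second quantile normalization, and 1 to 2 with single arrays left out. Between the controls 1 was called, 0 with the median of the probe sets and 2 with array weights. Calls among the other G protein subunits were 8, with 3 by the median of the probe sets, 5 with only genes above the median level (10 measured there) and 4 with the letter block. For effectors they were 6, with 3 under each of the latter 2 settings, and for regulators 5, with 2 under the letter block. Usage calls between the controls were 1, with 0 under the letter block and 0 to 1 with single arrays left out. Of the called genes named, Gng4 alone changed sign (-0.0989 with the letter block); the cause was not tested, as for the other changes here. All-gene counts against both controls fell from 4825 to 2509 with the letter block, against shGFP from 4416 to 1933, and between controls moved from 1752 to 962 (median of probe sets) and 2916 (array weights).

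Whether same-numbered arrays pair was not clear. The correlation of their deviations was over 0.1 in 5 of 8 pairs (-0.0561 to 0.263). In the 32 other pairs between groups it ran from -0.292 to 0.287. With the replicate block (consensus correlation 0.0688), 4 members were called against both controls, Gnai2 being gained (adjusted p = 0.0490), and 5026 genes in all.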
